A study of Mus musculus with 6 samples.

Results

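Of the 697 lineage barcodes called in these PB3 cells, 186 were rare before treatment: each was carried by 2 to 9 of the 5087 barcoded untreated whole cells. A lineage barcode is a short synthetic DNA sequence that a lentivirus inserts into the genome and that daughter cells inherit, so cells with the same barcode are taken as descendants of the same marked cell. The members were chosen by their cell counts in the untreated whole cells, so those counts are a description and carry no test. Of 193 barcodes in that range, 7 were left out: 4 by name (bc14-4-bc30-67693, bc14-18-bc30-67263, bc14-76-bc30-49517 and bc14-95-bc30-33662) and 3 more (bc14-33-bc30-33994, bc14-71-bc30-60126 and bc14-75-bc30-22367) because most of their paclitaxel cells lay in cluster 9. The barcodes left out by name had up to 1118 cells in 1 treated condition. What follows is therefore the fate of the rare lineages once leading survivors among them were taken away, and none of the low shares under treatment stands for rare lineages in general.

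PB3 is a mouse mammary tumour cell line. Untreated cells were captured as whole cells (UNT cells) and as nuclei (UNT nuclei), and cells after 4 rounds of eribulin likewise (ERI4 cells and ERI4 nuclei), where a round was 500 nM for 72 h and then 48 h of recovery. Cells after 1, 2 or 3 eribulin rounds (ERI1, ERI2 and ERI3) shared 1 hashtagged capture, and cells after 1, 2 or 3 paclitaxel rounds (PAC1, PAC2 and PAC3) shared another. Paclitaxel was given at 100 nM for 72 h in the first round and at 250 nM afterwards, and a recovery of 48 h is recorded for the capture as a whole. The labels give no length of recovery after the last round for PAC1 and PAC3 and name none for PAC2. Every group carried the barcodes, each condition has 1 library or 1 part of a hashtagged library, and the labels do not state whether the treated cultures were split from the one that gave the UNT cells.

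Eribulin blocks the growth of microtubules at their ends and paclitaxel stabilises them, so both hold dividing cells in mitosis. In a barcoded culture, most lineages are lost when a drug kills most cells, and a few expand again from survivors. A lineage of few cells can also go unseen because too few cells were sampled.

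Each barcode is 48 bases long: a 14-base part (named bc14), the spacer tggt, and a 30-base part (named bc30). The sequences below, from the deposited barcode lists, are in lower case with the bc30 part in capitals. The first pair are the members with the most ERI4 cells, the next 3 are the other members with the most treated cells, and bc14-10-bc30-85109 had the most PAC3 cells.
bc14-29-bc30-49561: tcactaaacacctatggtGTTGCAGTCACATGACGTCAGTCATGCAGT
bc14-71-bc30-88522: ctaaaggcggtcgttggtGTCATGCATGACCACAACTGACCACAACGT
bc14-38-bc30-7217: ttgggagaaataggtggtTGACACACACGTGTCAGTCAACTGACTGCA
bc14-13-bc30-74188: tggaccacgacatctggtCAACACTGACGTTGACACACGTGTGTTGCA
bc14-65-bc30-93586: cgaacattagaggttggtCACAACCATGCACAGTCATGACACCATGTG
bc14-10-bc30-85109: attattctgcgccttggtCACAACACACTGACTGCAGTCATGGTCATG
The next 3 have the same bc14 part as bc14-38-bc30-7217 and are told from it by the capitals alone. They are shown for the condition with their most cells. This was ERI2 for bc14-38-bc30-83 and bc14-38-bc30-12084, and PAC1 for bc14-38-bc30-11889, as for bc14-38-bc30-7217. For bc14-38-bc30-11889 eribulin rounds 1 to 3 give no reading, as described below.
bc14-38-bc30-83: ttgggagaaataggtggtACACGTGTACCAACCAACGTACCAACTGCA
bc14-38-bc30-12084: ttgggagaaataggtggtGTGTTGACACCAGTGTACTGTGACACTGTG
bc14-38-bc30-11889: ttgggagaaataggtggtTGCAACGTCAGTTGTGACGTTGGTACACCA
The last pair were seen in no treated condition and are shown because they were among the most frequent members in UNT nuclei.
bc14-40-bc30-8290: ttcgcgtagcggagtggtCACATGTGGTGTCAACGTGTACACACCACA
bc14-35-bc30-80855: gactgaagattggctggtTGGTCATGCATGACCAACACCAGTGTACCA

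All 186 members matched the list of 10000000 sequences. They used 65 different bc14 parts, and 163 shared theirs with another member, up to 10 members for 1 part. The bc30 part was different in every member and had a GC content of 50% in all of them. The bc30 part of any member differed from that of any other member at 10 or more of the 30 positions, and from that of any other called barcode at 8 or more. No member was within 2 mismatches of another called barcode.

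The barcodes that could be named differed between libraries. A deposited list of 185 barcodes accompanies the second run, and all 149 barcodes called in ERI1, ERI2 or ERI3 were on it, against 80 of the 162 called in PAC1, PAC2 or PAC3. How the list was chosen is not given in the sources used here, and whether it was drawn from barcodes seen under eribulin was not tested. Of the members, 64 (34.4%) were on the list and 122 were off it. An unlisted member had no cell in ERI1 to ERI3 or in ERI4 cells, while 18 of the 122 were seen in at least 1 paclitaxel condition. Being on the list went with size: 10 of the 63 members with 2 UNT cells were listed, and 27 of the 45 with 6 to 9. Counts under eribulin are therefore given below also over the 64 on the list, called listed members, beside all listed barcodes, and paclitaxel values are given for both sets. Values over listed barcodes are descriptions, since the list itself may set them.

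The members were small and unequal in UNT cells. Of the 186, 63 had 2 cells, 34 had 3, 26 had 4, 18 had 5, 11 had 6, 10 had 7, 13 had 8 and 11 had 9. Together they made up 761 cells, 15.0% (95% exact Clopper-Pearson interval 14.0 to 16.0) of the barcoded UNT cells. All intervals here are of that kind and cover counting error within a library only. On the far side of the upper limit stood 2 barcodes with 10 UNT cells, of which 1 was seen after treatment, beside 4 of the 11 members with 9. On the far side of the lower limit stood 210 barcodes with 1 cell, of which 34 were seen after treatment, beside 13 of the 63 members with 2.

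The UNT nuclei give a measure of the same barcodes that the rule did not use. There, 157 of the 186 members (84.4%, 78.4 to 89.3) were seen with at least 1 nucleus. Over all 506 barcodes of the UNT cells that share was 67.4%. It was 36.7% of the 210 barcodes with 1 UNT cell and 99.0% of the 103 with 10 or more, so the members stood between these classes. Members held 1033 of 4935 barcoded nuclei (20.9%, 19.8 to 22.1). The median was 4 nuclei a member, 29 members had none, 21 had 1, 103 had 2 to 9 and 33 had 10 or more. Those 33 were not rare in the nuclei. The highest was bc14-40-bc30-8290, with 9 UNT cells (0.177%, 0.0809 to 0.336) and 36 nuclei (0.729%, 0.511 to 1.01). Next came bc14-13-bc30-72181, with 9 cells and 32 nuclei, and bc14-35-bc30-80855, with 2 cells (0.0393%, 0.00476 to 0.142) and 24 nuclei (0.486%, 0.312 to 0.723). These 3 were named for their nuclei and the rule limited their cells, so the gap between the 2 counts is a description. Across members the number of cells and the number of nuclei rose together (Spearman's rho 0.59 over 186 members, a description in which both counts depend on the size of a lineage).

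Most rare lineages were not seen again after drug. Of the 186 members, 112 (60.2%) had no cell in any of the 8 treated conditions, 74 had at least 1, and 22 of those 74 had exactly 1. Over all 506 barcodes of UNT cells the share seen in any treated condition was 38.7%, near the 39.8% of members (32.7 to 47.2). Of the 112, 99 were unlisted, and no unlisted barcode at all was called in ERI1 to ERI3. Of the same 112, 23 were also missing from the UNT nuclei. Of the listed members, 51 of 64 (79.7%, 67.8 to 88.7) were seen somewhere under treatment, beside 87.2% of all 156 listed barcodes. The 13 listed members never seen under treatment included bc14-34-bc30-58694, with 9 UNT cells and 17 UNT nuclei, and bc14-35-bc30-80855. Among unlisted members, bc14-36-bc30-65075 (9 cells, 11 nuclei) and bc14-40-bc30-8290 were also not seen. The 758 treated cells of all members were unevenly shared: 21 members had 10 or more each, and the 4 with the most held 280 (36.9%).

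After 1 round of eribulin many listed members were still seen, while unlisted ones gave no reading. In ERI1, 40 members were seen, all of them listed. That was 21.5% of the 186 (15.8 to 28.1), beside 22.7% of all barcodes of UNT cells, and 62.5% of the 64 listed members (49.5 to 74.3), beside 73.7% of listed barcodes. They held 206 of 1356 barcoded cells, 15.2% (13.3 to 17.2), beside 15.0% in UNT cells. The 15.0% counts unlisted members and barcodes too, so it is not like for like with the 15.2%. In UNT cells the listed members held 329 of the 3225 cells with listed barcodes, beside 206 of 1356 in ERI1. In ERI2, 20 were seen, which was 10.8% of the 186 beside 11.3% of all barcodes, and 31.2% of the listed members (20.2 to 44.1) beside 36.5% of listed barcodes. In ERI3, 21 were seen, which was 11.3% of the 186 beside 11.1%, and 32.8% of the listed members (21.6 to 45.7) beside 35.9%. The members' share of barcoded cells was 7.03% (5.43 to 8.92) in ERI2 and 2.98% (2.31 to 3.78) in ERI3. In ERI4 cells 3 members were seen (1.61% of 186, and 4.69% of the listed, 0.977 to 13.1), where 2.17% of all barcodes and 7.05% of listed ones were. Those 3 held 70 of 6725 barcoded cells, 1.04% (0.812 to 1.31). This last share depends on how members are defined: it was 11.1% with the call before the latest one, 92.1% with only cells of exactly 1 detected barcode, 18.2% with no barcode left out, and 0.496% for the same 186 members in cells with 1 detected barcode.

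The conditions hold different numbers of barcoded cells, which bear on how many members can be seen. With every condition brought to 569 barcoded cells, the number in PAC2, the expected number of members was 67.8 in UNT cells, of which 28.0 listed, 29.4 in ERI1, 15.5 in ERI2, 10.2 in ERI3 and 1.81 in ERI4 cells. Of the 5087 barcoded UNT cells 3225 carried listed barcodes, against all 1356 in ERI1. The draw from UNT cells thus held fewer cells with listed barcodes, and its 28.0 is not like for like with the 29.4 of ERI1. From ERI1 on, the expected number was lower at each later round, with ERI3 now below ERI2. These values come from different runs for UNT cells, ERI1 to ERI3 and ERI4 cells, and treatment and run cannot be told apart between them.

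Of the 40 members seen in ERI1, 15 (37.5%) were seen in ERI2 and 15 in ERI3, and 8 were seen in all 3 conditions. Over all barcodes of UNT cells, 41.7% of the 115 in ERI1 were seen in ERI2 and 40.9% in ERI3. Of the 20 members in ERI2, 11 (55.0%) were seen in ERI3, beside 56.1% of the 57 barcodes. The conditions are separate samples, so a member missing in 1 and present in a later one was not followed in 1 culture. Counts at ERI2 and ERI3 were low, with 12 of 20 and 9 of 21 members at a single cell. Some members were frequent at 1 round only. For bc14-52-bc30-78401 there were 7 UNT cells, 17 ERI1 cells and none in any later eribulin or paclitaxel condition, beside 14 UNT nuclei. For bc14-38-bc30-83 there were 7 UNT cells, 5 ERI1 cells, 19 ERI2 cells (2.15% of barcoded cells, 1.30 to 3.34) and 2 ERI3 cells. For bc14-38-bc30-12084 there were 4 UNT cells, 2 ERI1 cells, 8 ERI2 cells and none in ERI3. Its 8 ERI2 calls rested on few counted barcode molecules, with a median of 2 a cell, beside 12 in its UNT cells. The authors' earlier call was the same in all 8 ERI2 cells and in 0 of the 4 UNT cells. Together bc14-38-bc30-83 and bc14-38-bc30-12084 held 27 of the 62 member cells of ERI2 and 2 of the 66 of ERI3.

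The member that lasted through eribulin with the most cells was bc14-29-bc30-49561. It had 3 of 5087 UNT cells (0.0590%, 0.0122 to 0.172), 8 cells in ERI1, none in ERI2, 7 in ERI3 (0.316%, 0.127 to 0.650) and 54 in ERI4 cells (0.803%, 0.604 to 1.05). In the nuclei, from a separate run whose UNT count the rule did not use, it had 2 of 4935 in UNT nuclei (0.0405%, 0.00491 to 0.146) and 19 of 1495 in ERI4 nuclei (1.27%, 0.767 to 1.98). These intervals did not overlap, in a member named for its ERI4 counts. The authors' earlier call was the same in 51 of the 54 ERI4 cells, but in 8 of the 19 ERI4 nuclei. It was also the same in 2 of the 2 UNT nuclei and 1 of the 3 UNT cells. Under paclitaxel bc14-29-bc30-49561 had 2 cells, both in PAC2. Without it, the members' share of ERI4 cells was 0.238%.

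A smaller case was bc14-71-bc30-88522. It had 4 UNT cells (0.0786%, 0.0214 to 0.201), 8 cells in ERI1, 1 in ERI2, 8 in ERI3, 15 in ERI4 cells (0.223%, 0.125 to 0.368) and 4 in PAC1. In the nuclei it went from 3 (0.0608%, 0.0125 to 0.178) to 12 (0.803%, 0.415 to 1.40), and the intervals were apart. This member too was named for its ERI4 counts, so the gap is a description, and in whole cells its intervals overlapped. Of the 12 nuclei, 7 had 2 or more detected barcodes. The authors' earlier call was the same in 6 of the 12 nuclei and in 13 of the 15 ERI4 cells. The third member of ERI4 cells, bc14-37-bc30-24227, had 4 UNT cells, 3, 6 and 2 cells in ERI1, ERI2 and ERI3, and 1 ERI4 cell. It went from 18 UNT nuclei to 1 ERI4 nucleus.

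The ERI4 nuclei held more different members than the ERI4 cells, as they held more different barcodes of any kind (65 against 16). There, 19 members (10.2%, 6.26 to 15.5) were seen, beside 9.49% of all barcodes of UNT cells, and they held 51 of 1495 barcoded nuclei (3.41%, 2.55 to 4.46). Of the 19, 13 were listed (20.3% of 64, beside 21.2% of listed barcodes) and 6 were not, and 14 had a single nucleus. All 3 members of the ERI4 cells were among the 19, and 7 of the 19 were seen in nuclei with 1 detected barcode. A barcode was called in 17.2% of ERI4 nuclei, beside 72.1% of ERI4 cells. In an equal draw of 569 the expected number of members was 9.17 in ERI4 nuclei and 1.81 in ERI4 cells. The members that were at least 2 times as frequent as in UNT nuclei, with 3 nuclei or more, were bc14-29-bc30-49561 and bc14-71-bc30-88522 (2 of 186, beside 1.58% of all barcodes).

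Fewer members were seen at each later paclitaxel round, as were fewer of all barcodes. In PAC1, 31 of 186 members (16.7%, 11.6 to 22.8) were seen, beside 21.1% of all barcodes, and 17 of 64 listed ones (26.6%, 16.3 to 39.1), beside 42.3% of listed barcodes. They held 241 of 1792 barcoded cells, 13.4% (11.9 to 15.1). In PAC2, 18 members were seen (9.68%, 5.84 to 14.9, beside 12.3%), 11 of them listed (17.2%, beside 26.9%), with 32 of 569 barcoded cells, 5.62% (3.88 to 7.85). In PAC3, 11 were seen (5.91%, 2.99 to 10.3, beside 8.89%), 6 of them listed (9.38%, beside 17.9%), with 30 of 2286 barcoded cells, 1.31% (0.887 to 1.87). At 569 cells the expected numbers were 21.5 in PAC1, 18.0 in PAC2 and 5.09 in PAC3, with PAC1 and PAC2 close. The rule removed barcodes that led cluster 9 under paclitaxel, so the size of the PAC shares depends on that choice: with the 7 barcodes kept, the share in PAC3 was 74.1%.

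The PAC1 cells were held by a few members. The most frequent was bc14-38-bc30-7217, with 9 UNT cells (0.177%, 0.0809 to 0.336), 44 PAC1 cells (2.46%, 1.79 to 3.28), 4 in PAC2 and 6 in PAC3 (0.262%, 0.0964 to 0.570). Under eribulin it had 20 cells in ERI1, none in ERI2 and 3 in ERI3. It was most frequent after the first round of either drug. Next was bc14-13-bc30-74188, with 4 UNT cells, 37 PAC1 cells (2.06%, 1.46 to 2.83), 5 in PAC2 and none in PAC3, and with 6, 2 and 14 cells in ERI1, ERI2 and ERI3. Its 14 cells made it the most frequent member of ERI3 (0.632%, 0.346 to 1.06), yet it was not seen in any of the 6725 barcoded ERI4 cells, a count of 0 under which its share may still be 0.0446%. In the UNT nuclei it had 1. The third, bc14-65-bc30-93586, had 5 UNT cells, 30 PAC1 cells (1.67%, 1.13 to 2.38) and 1 in PAC2, and 11 cells in ERI1 and 1 in ERI3. The 3 were named for their PAC1 cells, and their UNT counts were limited by the rule, so the rise is a description.

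Members that reached PAC3 were few. Of the 31 in PAC1, 12 (38.7%) were seen in PAC2, beside 48.6% of the 107 barcodes of UNT cells in PAC1, and 9 (29.0%) in PAC3, beside 36.4%. In all 3 conditions 5 were seen. Those 5 were bc14-10-bc30-85109, bc14-21-bc30-32283, bc14-38-bc30-11889, bc14-38-bc30-7217 and bc14-47-bc30-81720. The first had the most PAC3 cells: 8 UNT cells (0.157%, 0.0679 to 0.310), 5 PAC1 cells, 3 in PAC2 and 8 in PAC3 (0.350%, 0.151 to 0.688). It also had 15 cells in ERI1 and 4 in ERI2, and none in ERI3 or ERI4 cells. The unlisted bc14-38-bc30-11889 had 9 UNT cells, 20 in PAC1 (1.12%, 0.683 to 1.72), 1 in PAC2 and 2 in PAC3. The unlisted bc14-47-bc30-81720 had 2 UNT cells, 11 in PAC1, 2 in PAC2 and 4 in PAC3. For it the authors' earlier call was the same in 10 of the 11 PAC1 cells and 2 of the 2 PAC2 cells, but in 0 of the 4 PAC3 cells. For these unlisted members eribulin rounds 1 to 3 give no reading.

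Because every barcode called in ERI1 to ERI3 was listed and only part of those in PAC1 to PAC3 were, the drugs are not compared here. The doses differed, and the recovery after the last paclitaxel round is not fully given. In a draw of 569 cells the expected listed members for rounds 1, 2 and 3 were 29.4, 15.5 and 10.2 under eribulin and 13.2, 11.0 and 3.04 under paclitaxel. These draws are not like for like between the drugs. All barcoded cells of ERI1 to ERI3 carried listed barcodes, against 1261 of 1792 in PAC1, 337 of 569 in PAC2 and 1456 of 2286 in PAC3. Of the 64, over rounds 1 to 3, 18 were seen under both drugs, 30 under eribulin only, 3 under paclitaxel only and 13 under neither, and the list may set this split. Of the 17 listed members in PAC1, 16 were also in ERI1 (94.1%, beside 93.9% of the 66 listed barcodes in PAC1), which is 40.0% of the 40 members in ERI1 (beside 53.9%). Of the 6 listed members in PAC3, 1 was also in ERI3, bc14-38-bc30-7217, beside 11 of the 28 listed barcodes in PAC3. The most treated conditions a member was seen in was 6 of 8, for bc14-38-bc30-7217 and bc14-71-bc30-88522.

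A member was called higher where it had 3 or more cells and at least 2 times its share of UNT cells. Since that share was used by the rule, these counts are descriptions. In ERI1, 19 members were higher (29.7% of the listed, beside 25.6% of listed barcodes and 7.91% of all), in ERI2 6 (9.38%, beside 11.5% and 3.56%), in ERI3 4 (6.25%, beside 7.05% and 2.17%) and in ERI4 cells 2 (3.12%, beside 5.13% and 1.58%). In PAC1, 17 members were higher (9.14% of 186, beside 7.51% of all barcodes), 11 of them listed (17.2%, beside 14.1%). In PAC2 there were 3, all listed (beside 2.77% of all barcodes and 5.77% of listed ones). In PAC3 there were 2, the listed bc14-10-bc30-85109 and the unlisted bc14-47-bc30-81720 (beside 1.98% and 3.85%). These shares lay near the background and are no result about the members.

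The deposited clusters, numbered by the authors from the expression of all libraries together, show where the rare lineages' cells lay. In UNT cells 63.9% of the 761 member cells were in cluster 1, 21.0% in cluster 5 and 8.54% in cluster 6, beside 57.7%, 27.2% and 10.9% of the other barcoded UNT cells. For clusters 1 and 5 the intervals of the members (60.3 to 67.3 and 18.2 to 24.1) and of the others (56.3 to 59.2 and 25.9 to 28.5) did not overlap, though cells of 1 barcode are not independent. Cells of 1 member tended to share a cluster: 66.3% of pairs of UNT cells within a member did, beside 45.9% of pairs from different members. In the UNT nuclei the same values were 43.5% and 45.3%, so the likeness was not seen there. Most nuclei lay in a different cluster, however: cluster 0 held 65.1% of member nuclei and 3.15% of member UNT cells. The values in nuclei therefore cannot show whether the likeness over clusters 1, 5 and 6 was absent. By the cluster that held most of a member's UNT cells, 115 members were led by cluster 1, 28 by cluster 5 and 9 by cluster 6, 32 were tied and the other two were led by clusters 0 and 9. Listed members led by cluster 1 were seen in PAC1 in 13 of 38 cases (34.2%, 19.6 to 51.4) and those led by cluster 5 in 1 of 16 (6.25%, 0.158 to 30.2). In ERI1 the same counts were 25 of 38 and 8 of 16. The intervals overlapped in both conditions.

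The leading cluster was the same in member cells and in the other barcoded cells in all treated conditions but ERI4 cells and PAC2. In ERI1, 95.1% of member cells (91.3 to 97.6) were in cluster 7, beside 91.4% of the other barcoded cells, and in ERI2 85.5% (74.2 to 93.1), beside 91.0%. In ERI3, 45.5% were in cluster 2, beside 46.7%, and 12.1% (5.38 to 22.5) in cluster 8, beside 28.3% (26.4 to 30.2). In ERI4 cells 71.4% of the 70 member cells (59.4 to 81.6) were in cluster 8, beside 19.7% (18.7 to 20.6) of the others. None was in cluster 3, which held 68.0% of the others. This rested on few lineages: bc14-29-bc30-49561 had 40 of its 54 cells in cluster 8, bc14-71-bc30-88522 had 9 of 15, and without the first the share was 62.5% (35.4 to 84.8) of 16 cells. Their pseudotime, the position along a path from untreated cells that the authors computed, had a median of 18.4 in ERI4 member cells and 28.8 in the others. All barcoded ERI4 cells carried only 16 different barcodes, so the others were also cells of few lineages. Cells of the same barcode are not independent, and these gaps are no contrast of rare lineages with lineages in general. In the ERI4 nuclei 37.3% of the 51 member nuclei (24.1 to 51.9) were in cluster 10, beside 42.2%, and 27.5% (15.9 to 41.7) in cluster 4, beside 30.8%. Those of bc14-29-bc30-49561 were spread, with 8 of 19 in cluster 4, 5 in cluster 10 and 4 in cluster 8. In ERI4 cells, clusters 10 and 4 held only 0.676% and 0.932% of the other barcoded cells. Cluster shares of nuclei and of whole cells are thus not like for like.

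Under paclitaxel, in PAC1, 54.8% of member cells (48.3 to 61.2) were in cluster 6, beside 33.5% (31.1 to 35.9) of the others, and the choice of members took barcodes of cluster 9 out of the first number only. For bc14-13-bc30-74188, 32 of 37 PAC1 cells were in cluster 6, and so were 9 of its 14 ERI3 cells, although 4.56% of the other barcoded ERI3 cells were there. For bc14-38-bc30-7217 it was 27 of 44 PAC1 cells. For bc14-65-bc30-93586 it was 5 of 30, with 11 in cluster 2 and 8 in cluster 1, so the leading members of PAC1 were not alike. In PAC2, 71.9% of the 32 member cells (53.3 to 86.3) were in cluster 7, beside 35.9% (31.9 to 40.2) of the others, again with cluster 9 barcodes taken out of the first number only.

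A single member stood apart in PAC3, bc14-10-bc30-85109. Of its 8 cells, 7 lay in cluster 3, the cluster of most ERI4 cells, with a median pseudotime of 28.5 over the 8. Only 19 of the 2286 barcoded PAC3 cells lay in that cluster, and these 7 were the largest group of 1 barcode among them, followed by 6 of bc14-76-bc30-49517. All 15 ERI1 cells of the same member lay in cluster 7, and none of its UNT cells lay in cluster 3. This member was singled out after its values were seen, and rests on 8 cells. Its PAC3 calls rested on few counted barcode molecules, with a median of 3 a cell, beside 12 in its UNT cells. The authors' earlier call was the same in all 8 PAC3 cells and in 2 of the 8 UNT cells.

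The called barcode was often 1 of several in a cell. In UNT cells 87.4% of member cells had 2 or more detected barcodes, beside 87.5% of the other barcoded cells. In each treated condition the share was above that of the other barcoded cells, with 37.9% (31.2 to 44.9) beside 22.9% in ERI1, 38.7% (26.6 to 51.9) beside 22.1% in ERI2, 31.8% (20.9 to 44.4) beside 9.12% in ERI3, 77.1% (65.6 to 86.3) beside 51.8% in ERI4 cells, 46.7% (28.3 to 65.7) beside 11.6% in PAC3, and 54.9% (40.3 to 68.9) beside 38.4% in ERI4 nuclei. In PAC1 (27.0%, 21.5 to 33.0, beside 21.5%) and PAC2 (34.4%, 18.6 to 53.2, beside 21.4%) the interval held the second value. In the UNT nuclei the share was also above, at 27.8% (25.1 to 30.6) beside 20.3% (19.1 to 21.6), so the gap was not particular to treated conditions. Counting cells or nuclei with 1 detected barcode alone, 34 members were seen in ERI1, 11 in ERI2, 17 in ERI3, 2 in ERI4 cells, 25 in PAC1, 14 in PAC2, 5 in PAC3 and 7 in ERI4 nuclei. All 17 paclitaxel cells of bc14-47-bc30-81720 had 2 or more, as had 43 of the 54 ERI4 cells of bc14-29-bc30-49561. Whether such a cell is 1 cell with several insertions or a doublet was not tested. In the UNT nuclei 155 of the 157 members seen were also seen in nuclei with 1 detected barcode.

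The medians of UMIs (counted RNA molecules) were close between member cells and the other barcoded cells in most conditions, at 21019 and 20437 in UNT cells, 17027 and 17328 in ERI1 and 22209 and 20991 in ERI4 cells. They were farther apart in PAC2 (23510 and 17003) and PAC3 (17656 and 12887), where members had 32 and 30 cells. Pairs of libraries of whole cells shared 12 to 26 cell barcode sequences and the nuclei libraries shared 134. In no pair did a shared sequence carry the same member in both.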

How the data were processed

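RNA libraries of whole PB3 cells and of their nuclei came from 3 runs: UNT and ERI4 cells in the first, the ERI1 to ERI3 and PAC1 to PAC3 captures in the second, and UNT and ERI4 nuclei in the third. Per the submitters' processing notes, Cell Ranger 3.1.0 and 4.0.0 and Cell Ranger ARC 1.0.0, Seurat 3.1.4, Monocle3 0.2.1 and the mm10 build were used. The deposited table holds 51785 cells. Its deposited counts are UMIs, barcode UMIs and detected barcodes per cell, its deposited percent values are mitochondrial shares, and its deposited score columns are cell cycle scores and pseudotime on arbitrary scales. How the barcodes were called is not given in the sources used here. No expression matrix was used.

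The latest of the authors' barcode calls named each cell, and a barcoded cell has 1 called barcode. The 2 spellings of barcode names in the table were brought to 1. In nuclei 1 was subtracted from the detected barcodes, since every nucleus had at least 1. A member is seen where at least 1 cell carries its call. Expected numbers in a draw of 569 barcoded cells were computed without replacement. With 1 library per condition, nothing was tested between conditions. Exact Clopper-Pearson 95% intervals and the limit of 3 cells for a share of 0 cover counting error only. Named barcodes are those with 3 or more ERI4 cells, the up to 3 with the most cells in each other treated condition and in UNT nuclei, and up to 3 each with 9 UNT cells and the most or no treated cells. The members and lists were chosen with earlier results of these data known. Left out were the UMAP coordinates. Computation used Python 3.11.15, pandas 2.3.3, numpy 2.4.6 and scipy 1.17.1, and the counting code was tested on simulated data.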

Additional observations from a re-analysis of the deposited data

How the results depend on the processing

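No paired analysis was possible because each condition has 1 library and the labels give no replicate numbers. No replicate was left out, since none exists. Of 9 conditions, each with the share of members seen and the share of barcoded cells held, those that moved beyond the reported interval are given. The cause was not tested except where the members themselves changed. With the call before the latest one there were 119 members, 83 of them among the 186. The share seen was 30.3% in ERI1, 20.2% in ERI3, 29.4% in PAC1 and 99.2% in UNT nuclei. The share held was 42.8% in ERI1, 20.7% in ERI2, 33.3% in ERI3, 11.1% in ERI4 cells, 37.0% in PAC1, 15.9% in PAC2, 8.39% in PAC3, 10.4% in ERI4 nuclei and 27.4% in UNT nuclei. The most frequent member was then bc14-6-bc30-93034 in ERI3, ERI4 cells and PAC3, a barcode outside the 186.

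With only cells of exactly 1 detected barcode there were 70 members, 20 of them among the 186. The share seen was 42.9% in ERI1, 17.1% in ERI2, 21.4% in ERI3, 37.1% in PAC1, 18.6% in PAC2 and 97.1% in UNT nuclei. The share held was 27.7% in ERI1, 11.4% in ERI2, 39.8% in ERI3, 92.1% in ERI4 cells, 26.4% in PAC1, 12.0% in PAC2, 7.66% in PAC3, 23.2% in UNT nuclei and 44.5% in ERI4 nuclei. In ERI4 cells 2775 were of bc14-55-bc30-23349, which had 3 UNT cells under this setting. Which lineages count as rare thus changed with the call and with the cells used, and the low shares late in treatment hold for the 186 members as reported.

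With no barcode left out (193 members) the share held was 21.0% in ERI1, 38.0% in ERI2, 46.3% in ERI3, 18.2% in ERI4 cells, 32.8% in PAC1, 48.9% in PAC2, 74.1% in PAC3 and 46.2% in ERI4 nuclei. With 2 cells needed to be seen, the share seen was 15.1% in ERI1, 4.30% in ERI2, 6.45% in ERI3, 4.30% in PAC2, 73.1% in UNT nuclei and 2.69% in ERI4 nuclei.

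Further settings were chosen after seeing the data. Over listed members alone, the share seen was 62.5% in ERI1, 31.2% in ERI2, 32.8% in ERI3, 4.69% in ERI4 cells, 26.6% in PAC1, 17.2% in PAC2, 20.3% in ERI4 nuclei and 96.9% in UNT nuclei. The share held was 9.99% in PAC1, 3.69% in PAC2, 0.875% in PAC3 and 11.0% in UNT nuclei. For the 186 members as reported and cells with 1 detected barcode in the condition, the share seen was 5.91% in ERI2, 2.69% in PAC3 and 3.76% in ERI4 nuclei, and the share held was 12.6% in ERI1, 2.25% in ERI3, 0.496% in ERI4 cells, 0.796% in PAC3, 19.4% in UNT nuclei and 2.52% in ERI4 nuclei. Leaving out cells whose cell barcode was in 2 or more libraries, or the 179 cells outside the authors' stated filter, moved 0 of 18 values beyond the interval.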
